A study of Mus musculus with 10 samples.

Results

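The 34 genes examined here carry out or control the synthesis of cholesterol and fatty acids. They were taken as a fixed list of gene symbols, by known function and with earlier results of these data known. All 34 were found among the 55809 gene rows of the count files. They comprised 7 genes of the mevalonate pathway, 11 of sterol synthesis proper, 5 of SREBP control, 3 of sterol transport and 8 of fatty acid synthesis. A mean count of at least 10 over the libraries was reached by 32 of them, among 16363 such genes in all, and the exceptions were the desaturase genes Scd1 and Fads2. After 14 days of induced Foxp3 degradation none of the 32 differed between genotypes at an adjusted p under 0.05. DESeq2 called 1.74% of all 16363 genes at that threshold. For 31 of the 32 genes the 95% interval of the fold change excluded a 2-fold difference in either direction, as it did for 80.1% of all tested genes.

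Cells make cholesterol from acetyl-CoA through mevalonate, farnesyl pyrophosphate and squalene, and the same acetyl-CoA feeds fatty acid synthesis. When sterol in the membrane of the endoplasmic reticulum runs low, the escort protein SCAP carries the SREBP transcription factors to the Golgi, where proteases release their active part, and INSIG proteins hold SCAP back when sterol is plentiful. The released factors raise transcription of the synthesis genes, so that the transcripts of this pathway usually serve as a readout of sterol supply. In T cells the pathway is known for its induction on activation, when dividing cells build new membrane, and in regulatory T (Treg) cells mevalonate-derived lipids are known to be needed for suppressive function.

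Bulk RNA-seq read-pair counts were collected from Treg cells of mouse spleen and lymph nodes. All mice carried the Foxp3-AID allele, in which Foxp3 is fused to an auxin-inducible degron and is expressed together with the ZsGreen reporter and Cre recombinase, and all received the auxin analog 5-ph-IAA for 14 days. The 4 R26-WT libraries (replicates 1 to 4) came from mice with an unmodified ROSA26 locus, which keep the Foxp3 protein. The 6 R26-TIR1(F74G) libraries (replicates 5 to 10) came from mice whose ROSA26 locus carries the plant ligase TIR1(F74G), mutated so that it recognizes 5-ph-IAA, and mCherry behind a loxP-flanked STOP cassette, so that Cre from the Foxp3 allele restricts the ligase to Treg cells. The header of the count files names the set as male, and the labels give no age. The methods give a general sort of Treg cells after enrichment of CD4+ T cells, as ZsGreen+ cells in R26-WT and as ZsGreen+ cells that were also mCherry+ in R26-TIR1(F74G), without naming these libraries. The gate, the ligase and its reporter thus differ together with the loss of Foxp3 and cannot be told apart from it. The labels do not say whether each library is a separate animal, so p-values measure the spread between these libraries.

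Libraries held from 24158699 to 54795718 counts, with a mean of 40328847 ± 8971751 (SD, n = 6) in R26-TIR1(F74G), below the 51171204 ± 4394248 (SD, n = 4) of R26-WT (two-sided exact permutation test, p = 0.0476). This call was lost in 7 of the 10 cases in which 1 library was left out, with an exact permutation p of up to 0.131. Treg transcripts were abundant in every library: Foxp3 had from 6778 to 16059 normalized counts (counts divided by DESeq2 size factors) and Il2ra from 12248 to 25710. Degradation targets the Foxp3 protein, and the log2 fold change of Foxp3 mRNA was 0.07 (SE 0.25; adjusted p 0.99996 with DESeq2). Some markers of other cell types were near 0, with at most 4 raw counts for the B cell gene Ms4a1, 0 for the myeloid gene Cd14, 4 for Adgre1 and 1 for the adipocyte gene Fabp4. Each of these lists also held higher genes, with up to 1341 raw counts for Cd79b and 333 for Cd79a of the B cell list, 116 for Cd68 of the myeloid list and 12977 for Pecam1 and 26 for Adipoq of the adipocyte and stromal list. In further lists there were up to 12852 for Xbp1 of the plasma cell list, and up to 2226 for Cd8b1, 881 for Nkg7 and 830 for Prf1 of the CD8 and NK cell list, in which Cd8a had at most 41 and Ncr1 had 0. Summed normalized counts of the 8 B cell genes were from 851 to 1393 in R26-WT and from 754 to 1457 in R26-TIR1(F74G), those of the 12 myeloid genes from 123 to 146 and from 103 to 181, and those of the 8 CD8 and NK cell genes from 2569.9 to 3314 and from 2196 to 3205. They were from 8518 to 10482.5 and from 8660.3 to 11620.4 for the 6 plasma cell genes, nearly all of it Xbp1, from 7864 to 11059.8 and from 6120.3 to 11789.8 for the 10 adipocyte and stromal genes, nearly all of it Pecam1, and from 10.1 to 25.6 and from 6.08 to 15.9 for the 6 erythroid genes. Of the tested genes of the B cell, plasma cell, myeloid, CD8 and NK cell, erythroid and adipocyte lists, Cd22 and Eomes were called higher in R26-TIR1(F74G) by DESeq2 and none lower, and edgeR called Eomes alone (edgeR adjusted p 0.230 for Cd22). Among 20 proliferation genes, 17 were called higher by DESeq2 (6 by edgeR), against 1.74% of all genes called in either direction by DESeq2 and 0.373% by edgeR, with a median log2 fold change of 1.35 over the list, and 3 of 10 stress and dissociation genes were called lower by DESeq2 (1 by edgeR), with summed normalized counts from 87399 to 118474 in R26-WT and from 57279.9 to 78383 in R26-TIR1(F74G). The part of these differences in the values of the lipid genes was not tested. In bulk RNA fewer cells of a type and less RNA per cell cannot be told apart.

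Promoter sequences were available from RefSeq (build GRCm38.p6) for 26 of the 34 genes, as windows from 250 bases before to 50 bases after a transcription start. Sterol-regulated promoters are known to pair an SREBP site with a CCAAT box, the site of the factor NF-Y, and both were searched on either strand. The motif CCAAT (or its reverse complement ATTGG) was found in 37.4% of all 32851 windows and in 41.1% of the 27025 genes. It was found for 14 of the 15 mevalonate and sterol synthesis genes that had a window, for 4 of 5 SREBP control genes, for 2 of 5 fatty acid genes and not for the 1 transport gene with a window, Abca1. The motif TCACNCCAC, a form of the sterol regulatory element, was rarer, in 1.24% of all windows, and among the 26 genes it was found in Hmgcs1 alone, with its first base 137 bases before the start. A match shows only that the letters are there. The 250 bases before the start are shown for Hmgcs1, Cyp51 and Insig1, whose transcripts were each lowest in replicate 9 of all 10 libraries, and for Fasn, whose transcript varied most of the 32 tested genes. These are examples, since replicate 9 was the lowest of all 10 libraries for 10 of the 32 tested genes. A link between the motifs and these levels was not tested. Capitals mark CCAAT or ATTGG and, in Hmgcs1, the TCACNCCAC match.
Hmgcs1 (chr13:119690101-119690350, plus strand): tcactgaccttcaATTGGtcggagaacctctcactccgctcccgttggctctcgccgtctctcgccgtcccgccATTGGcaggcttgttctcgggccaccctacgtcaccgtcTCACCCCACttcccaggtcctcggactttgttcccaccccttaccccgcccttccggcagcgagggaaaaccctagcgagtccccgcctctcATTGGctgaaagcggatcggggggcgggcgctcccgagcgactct
Cyp51 (chr5:4104698-4104947, minus strand): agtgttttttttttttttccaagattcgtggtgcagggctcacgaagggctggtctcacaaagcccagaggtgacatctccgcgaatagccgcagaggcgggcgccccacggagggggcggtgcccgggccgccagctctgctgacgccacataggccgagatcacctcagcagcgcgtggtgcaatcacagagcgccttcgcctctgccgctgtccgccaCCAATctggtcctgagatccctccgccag
Insig1 (chr5:28071162-28071411, plus strand): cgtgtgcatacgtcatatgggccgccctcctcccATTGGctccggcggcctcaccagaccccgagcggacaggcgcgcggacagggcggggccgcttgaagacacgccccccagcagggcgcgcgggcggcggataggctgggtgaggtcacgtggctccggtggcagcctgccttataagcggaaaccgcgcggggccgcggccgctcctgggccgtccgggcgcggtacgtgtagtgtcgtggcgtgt
Fasn (chr11:120824548-120824797, minus strand): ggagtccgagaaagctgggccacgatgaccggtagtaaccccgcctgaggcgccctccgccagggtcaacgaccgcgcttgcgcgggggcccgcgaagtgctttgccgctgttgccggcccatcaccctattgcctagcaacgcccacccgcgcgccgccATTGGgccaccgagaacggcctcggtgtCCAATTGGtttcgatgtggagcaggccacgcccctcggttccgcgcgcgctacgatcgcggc
The windows of Hmgcs1 and Fasn hold 3 CCAAT boxes each before the start, and in Fasn a pair of them overlaps, one on each strand. Those of Cyp51 and Insig1 hold 1 each.

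The genes differed far more in level from each other than between genotypes. On the scale of normalized counts per kb of exon, averaged over the 10 libraries, Srebf2 (2136), the gene of the SREBP that mainly drives sterol synthesis, and Acly (2108), which makes cytosolic acetyl-CoA, were highest and close to each other. They were followed by the late sterol enzymes Ebp (1504) and Sc5d (1225) and by the mevalonate enzyme Mvd (1031). Srebf1 (822), Cyp51 (805) and Acat2 (803) had nearly equal levels. The lowest tested levels were those of Acaca (11.7), the gene of acetyl-CoA carboxylase, and Idi1 (34.9), the isomerase that makes the allylic isoprenoid unit. Low values need care, since read pairs with a mapping quality under 30, or overlapping several genes, were not counted. Of the stretches of 50 bases in the annotated transcripts, 28.2% in Acaca and 24.4% in Idi1 also occur in other genes, and the same holds for 28.2% in Fdft1, 24.1% in Cyp51 and 20.4% in Acat2. Exon bases were shared with other annotated genes for 26.7% of Fdps, 18.8% of Fdft1, 13.2% of Scap, 12.1% of Hmgcs1, 12.1% of Tm7sf2 and 9.21% of Idi1, so levels of these genes are uncertain.

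**Figure D1:**
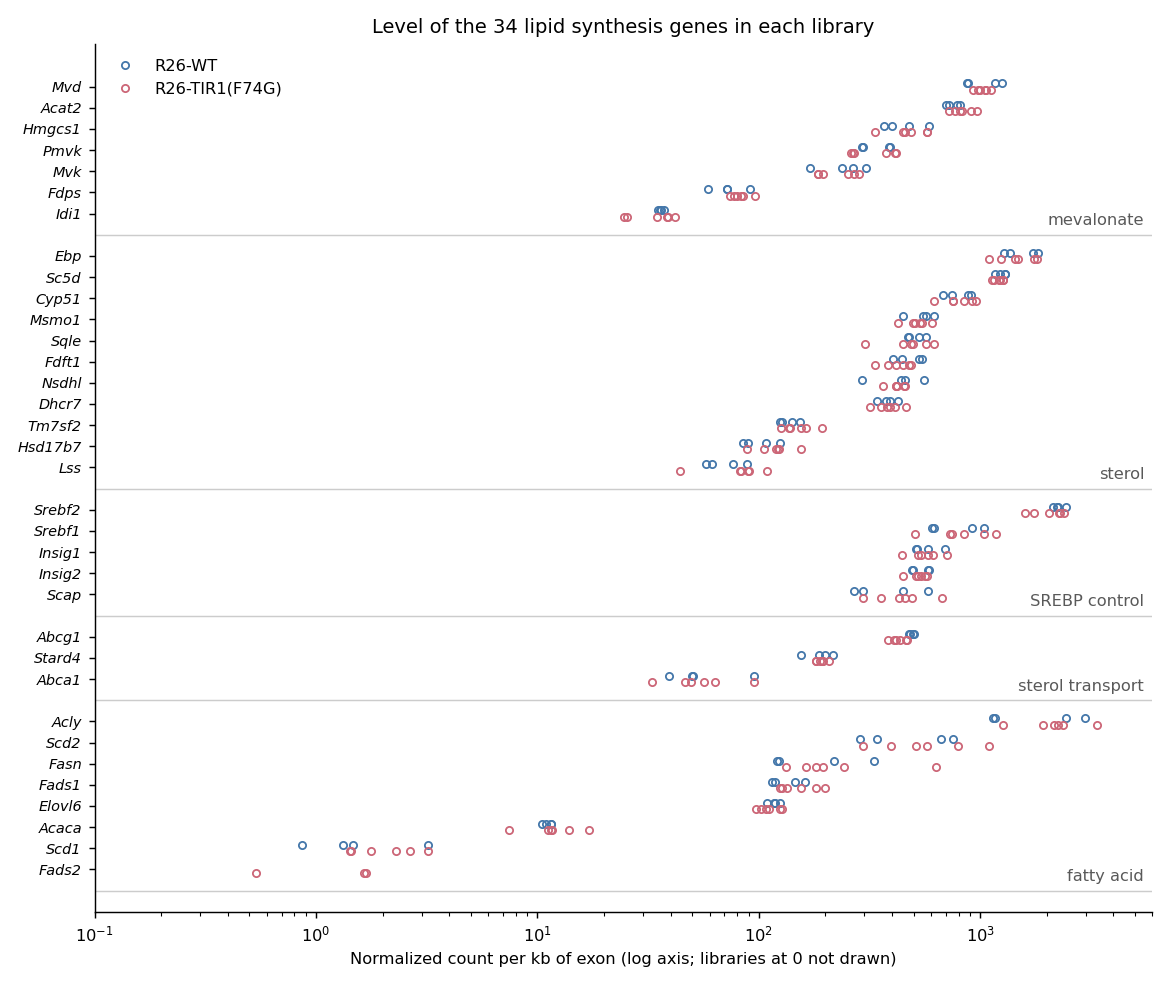
Normalized counts per kb of exon (log axis) for each of the 34 genes by role, with 1 circle per library, R26-WT above R26-TIR1(F74G) in each row. Levels span from Scd1 and Fads2 near the left edge to Srebf2 and Acly near 2000, and the circles of both genotypes overlap for every tested gene except Abcg1.

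The comparison of R26-TIR1(F74G) with R26-WT asks which lipid synthesis transcripts change in Treg cells when Foxp3 protein is lost. DESeq2 called 0 of the 32 tested genes, where it called 284 of 16363 genes overall (1.74%). The edgeR quasi-likelihood test also called 0 of 32, against 0.373% of all genes. At an unadjusted p under 0.05 stood 1 of the 32 genes with DESeq2, Abcg1, and 1 with edgeR, against 6.86% of all genes with DESeq2 and 6.21% with edgeR. The log2 fold changes were above 0 for 16 genes and below 0 for 16, from -0.20 for Abcg1 to 0.38 for Fasn, with a median of -0.0093 beside 0.00063 over all tested genes. The 95% interval lay within a 1.5-fold difference in both directions for 26 of the 32 genes (54.1% of all tested genes) and within a 2-fold difference for 31 (80.1% of all tested genes), Fasn being the exception. Differences inside these intervals were not detectable at this depth and number of libraries.

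**Figure D2:**
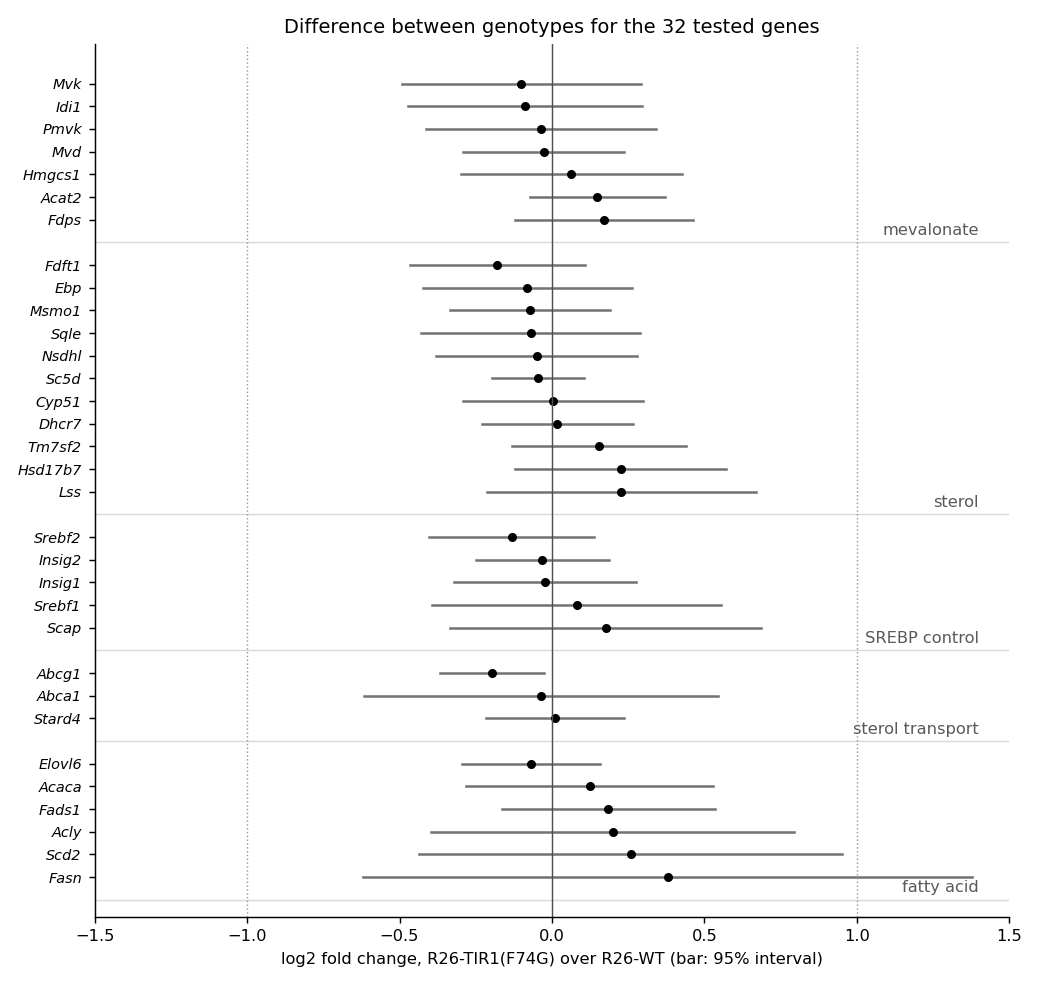
log2 fold change of R26-TIR1(F74G) over R26-WT for the 32 tested genes by role, with dots for estimates and bars for 95% intervals from the DESeq2 standard error. All bars cross 0 except that of Abcg1, and all end inside the dotted lines at -1 and 1 except that of Fasn, which reaches 1.38.

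In the mevalonate pathway none of the 7 genes was called, 3 fold changes were above 0 and 4 below, and the median log2 fold change was -0.03. Hmgcs1 (chromosome 13, 120151915 to 120169796, plus strand, GRCm39), the synthase that makes HMG-CoA and a standard readout of SREBP activity, had 2695, 2196, 1694 and 1845 normalized counts in R26-WT replicates 1 to 4, against 1546 to 2646, with a median of 2165, in R26-TIR1(F74G). The ranges covered each other almost fully. Its log2 fold change was 0.06 (SE 0.18, 95% interval from -0.30 to 0.42). Acat2 (chromosome 17, 13161777 to 13179634, minus strand), the thiolase that joins acetyl-CoA units at the entry of the pathway, had 1831, 1991, 1790 and 2064 normalized counts in R26-WT and from 1849 to 2469, with a median of 2086, in R26-TIR1(F74G). Its groups overlapped in part, and the log2 fold change was 0.15 (SE 0.11, 95% interval from -0.07 to 0.37). Fdps (chromosome 3, 89000895 to 89009266, minus strand), which makes farnesyl pyrophosphate, had 248, 302, 304 and 382 normalized counts in R26-WT and from 312 to 403, with a median of 344, in R26-TIR1(F74G). R26-WT replicate 4 lay among the R26-TIR1(F74G) libraries and the other 3 below them, with a log2 fold change of 0.17 (SE 0.15). Mvd (chromosome 8, 123160340 to 123170161, minus strand), the decarboxylase that ends the mevalonate steps, had the highest level per kb of the group. Its normalized counts were 1646, 1616, 2331 and 2159 in R26-WT and from 1734 to 2071, with a median of 1901, in R26-TIR1(F74G), so that all R26-TIR1(F74G) values lay between the low and the high R26-WT pair. The kinase genes Mvk and Pmvk had log2 fold changes of -0.10 and -0.04, and Idi1 had -0.09.

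Of the 11 genes that turn farnesyl pyrophosphate into cholesterol none was called, with 5 fold changes above 0, 6 below and a median of -0.05. Sqle (chromosome 15, 59186926 to 59203041, plus strand), squalene epoxidase, a rate-controlling and strongly SREBP-dependent step, had 3164, 2925, 2640 and 2625 normalized counts in R26-WT and from 1681 to 3442, with a median of 2729, in R26-TIR1(F74G). The R26-TIR1(F74G) libraries spread on both sides of R26-WT, and the log2 fold change was -0.07 (SE 0.18, 95% interval from -0.43 to 0.29). Fdft1 (chromosome 14, 63382599 to 63417027, minus strand), squalene synthase, had 1828, 1663, 2180 and 2252 normalized counts in R26-WT and from 1374 to 2002, with a median of 1783, in R26-TIR1(F74G). A pair of R26-WT libraries lay above all 6, and the log2 fold change was -0.18 (SE 0.15). Hsd17b7 (chromosome 1, 169777104 to 169796810, minus strand), a 3-ketosteroid reductase of the demethylation steps, had 551, 635, 433 and 455 normalized counts in R26-WT and from 453 to 789, with a median of 617, in R26-TIR1(F74G). Its log2 fold change was 0.22 (SE 0.18), within the spread of the libraries. Ebp (chromosome X, 8051568 to 8059751, minus strand), the sterol isomerase with the highest level per kb here, had 3163, 2974, 4217 and 4011 normalized counts in R26-WT and from 2521 to 4189, with a median of 3373, in R26-TIR1(F74G). R26-TIR1(F74G) replicates 7 and 8, at 2521 and 2878, lay below all R26-WT libraries, and the others lay within the R26-WT range. The log2 fold change was -0.08 (SE 0.17). Sc5d, the desaturase near the end of the pathway, was the steadiest gene of all, with a 1.14-fold range over the 10 libraries and a log2 fold change of -0.05 (SE 0.08). The fold changes of the others were 0.23 for Lss, 0.15 for Tm7sf2, 0.02 for Dhcr7, 0.0032 for Cyp51, -0.05 for Nsdhl and -0.07 for Msmo1 on the log2 scale.

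The 5 SREBP control genes were not called either, with a median log2 fold change of -0.02. Srebf2 (chromosome 15, 82031382 to 82089580, plus strand) had 17470, 15936, 15303 and 16070 normalized counts in R26-WT and from 11475 to 17210, with a median of 15520, in R26-TIR1(F74G). The 3 R26-TIR1(F74G) libraries of replicates 8, 9 and 10 lay below all R26-WT libraries, and the log2 fold change was -0.13 (SE 0.14, 95% interval from -0.40 to 0.14). Srebf1 (chromosome 11, 60089915 to 60113407, minus strand), whose product mainly drives fatty acid synthesis, had 5183, 5855, 3402 and 3474 normalized counts in R26-WT and from 2848 to 6672, with a median of 4472, in R26-TIR1(F74G). Both groups held high and low libraries, and the log2 fold change was 0.08 (SE 0.24). Scap (chromosome 9, 110162356 to 110214018, plus strand) varied even more, with 3326, 4346, 2005 and 2190 normalized counts in R26-WT and from 2193 to 5005, with a median of 3303, in R26-TIR1(F74G). Its log2 fold change of 0.18 had an SE of 0.26, and it lay between 0.025, without R26-TIR1(F74G) replicate 7, and 0.42, without R26-WT replicate 2, when 1 library was left out. Insig1 (chromosome 5, 28276361 to 28283660, plus strand), both a brake on SREBP processing and an SREBP target, had 2145, 1803, 1593 and 1607 normalized counts in R26-WT and from 1372 to 2193, with a median of 1742, in R26-TIR1(F74G). The difference was small against the spread (log2 fold change -0.02, SE 0.15), and that of Insig2, its paralog that SREBP does not induce, was -0.03 (SE 0.11).

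Among the transport genes, Abcg1 (chromosome 17, 31276649 to 31336962, plus strand), an exporter of cholesterol to lipoproteins and a target of the sterol-sensing LXR factors, came closest to a difference. It had 3534, 3686, 3477 and 3614 normalized counts in R26-WT and from 2809 to 3397, with a median of 3098, in R26-TIR1(F74G). Alone of the 32 genes, all 6 R26-TIR1(F74G) libraries lay below the 4 R26-WT libraries in normalized counts, as they did for 0.801% of all tested genes, while groups did not overlap in either direction for 2.37%. Its log2 fold change of -0.20 (SE 0.09, 95% interval from -0.37 to -0.02) did not pass the threshold (adjusted p 0.509 with DESeq2 and 0.706 with edgeR). Over the alternatives the adjusted p ran from 0.0673, with 1 surrogate variable in the DESeq2 model, to 0.999998, without R26-WT replicate 4. When each library's trends on exon length and GC content were removed, the groups overlapped, with R26-TIR1(F74G) replicates 6 and 9 at 3692 and 3591 above R26-WT replicates 1 and 2 at 3346 and 3251. The log2 fold change was then -0.25 (SE 0.15) in place of -0.20 (SE 0.09), and the unadjusted DESeq2 p was 0.0839 in place of 0.0249. The other LXR-driven exporter, Abca1 (chromosome 4, 53030787 to 53159895, minus strand), had 522, 983, 518 and 409 normalized counts in R26-WT and from 342 to 984, with a median of 547, in R26-TIR1(F74G). It showed no such separation, with a log2 fold change of -0.04 (SE 0.30). Stard4, which moves sterol between membranes inside the cell, averaged 1059 ± 143 (SD, n = 4) normalized counts in R26-WT, against 1067 ± 56.9 (SD, n = 6) in R26-TIR1(F74G).

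The widest spreads between libraries were found among the fatty acid genes. Of the 6 tested, 5 had fold changes above 0 and 1 below, with a median of 0.19 on the log2 scale, and none was called. Fasn (chromosome 11, 120696672 to 120715373, minus strand), fatty acid synthase, had 2385, 3613, 1346 and 1321 normalized counts in R26-WT and from 1460 to 6894, with a median of 2056, in R26-TIR1(F74G). A single library, replicate 7, held the value of 6894, and the next highest of the 6 was 2649. The log2 fold change was 0.38 with an SE of 0.51, and it was -0.11 without replicate 7. Acly (chromosome 11, 100367179 to 100418826, minus strand), ATP citrate lyase, had 12925, 15761, 6036 and 6178 normalized counts in R26-WT and from 6717 to 17727, with a median of 11618, in R26-TIR1(F74G). Scd2 (chromosome 19, 44282113 to 44295303, plus strand), a stearoyl-CoA desaturase known from brain and many other tissues, had 3644, 4120, 1562 and 1871 normalized counts in R26-WT and from 1617 to 6005, with a median of 2960, in R26-TIR1(F74G). In both genes R26-WT replicates 1 and 2 were high and replicates 3 and 4 low, and replicate 7 was the highest of all 10, as in Fasn. The log2 fold changes were 0.20 (SE 0.30) for Acly and 0.26 (SE 0.35) for Scd2, and both moved when single libraries were left out. Without R26-TIR1(F74G) replicate 7 they were 0.042 and 0.0068, without R26-WT replicate 3 they were 0.015 and 0.060, without R26-WT replicate 4 they were 0.022 and 0.11, and without R26-WT replicate 2 they were 0.49 and 0.51. Fads1 (chromosome 19, 10160252 to 10174241, plus strand), the delta-5 desaturase of polyunsaturated fatty acids, had 781, 702, 552 and 567 normalized counts in R26-WT and from 603 to 957, with a median of 697, in R26-TIR1(F74G), with a log2 fold change of 0.18 (SE 0.18). Acaca had a log2 fold change of 0.12 (SE 0.21), and the elongase gene Elovl6 one of -0.07 (SE 0.12).

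**Figure D3:**
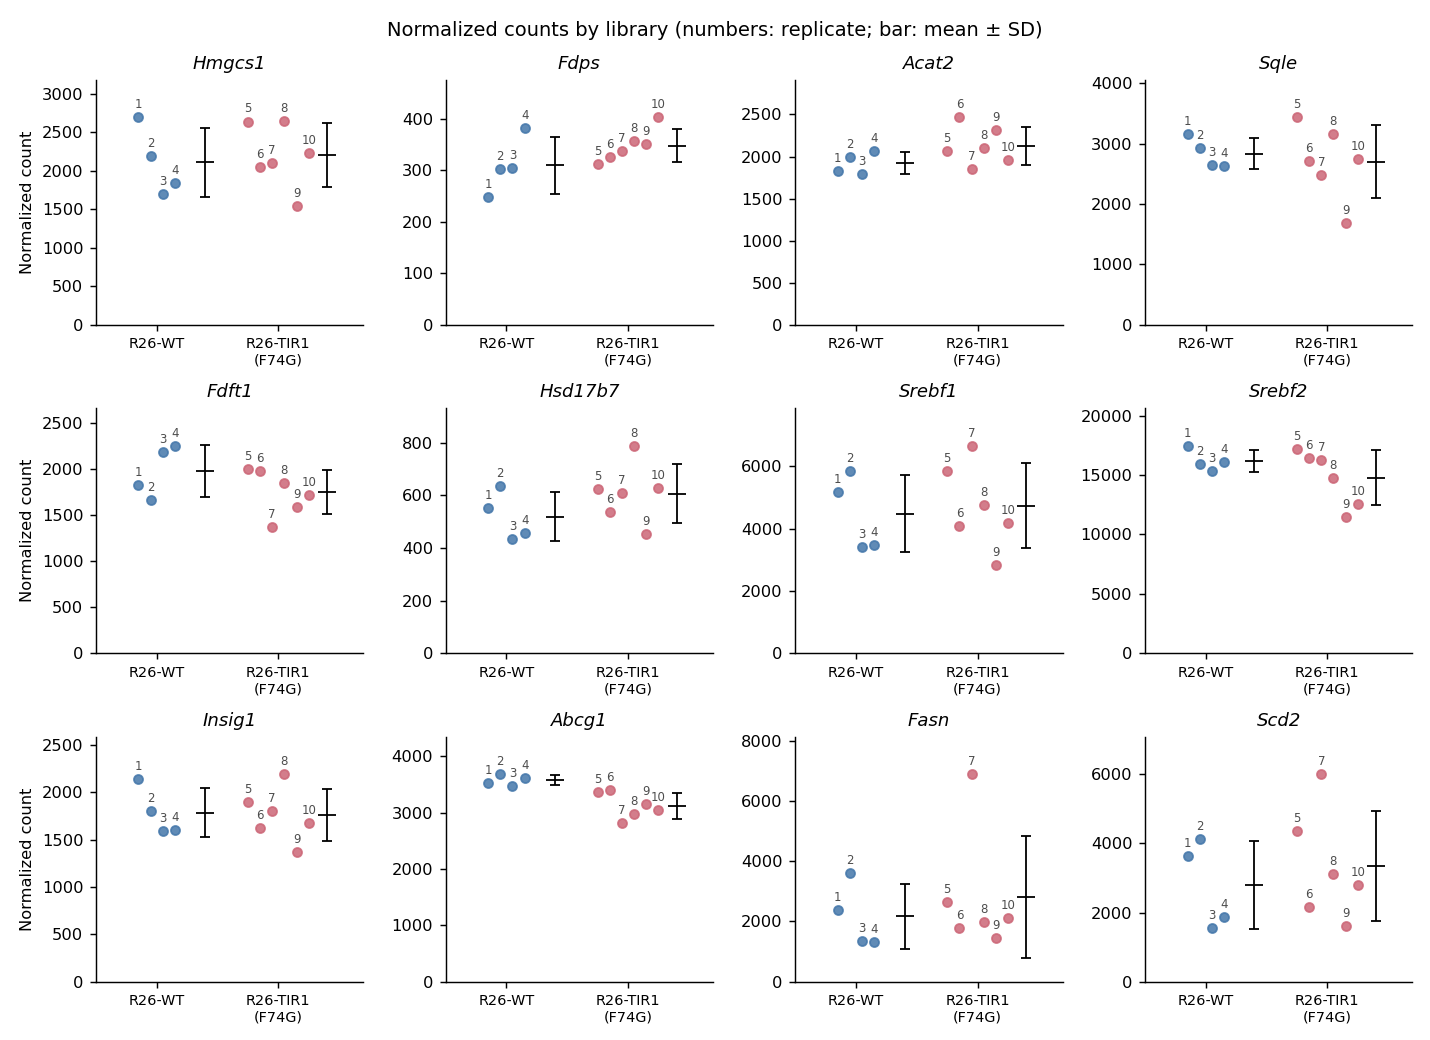
Normalized counts (linear axes from 0) of 12 of the genes, with 1 point per library labelled by its replicate number and black bars for mean ± SD (4 R26-WT and 6 R26-TIR1(F74G) libraries). The groups overlap in every panel except Abcg1, Fasn has a single high value of 6894 in replicate 7, and replicate 9 is the lowest of the 6 R26-TIR1(F74G) libraries for Hmgcs1, Sqle, Hsd17b7, Srebf1, Srebf2 and Insig1.

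Paralogs differed in level in 3 of the 4 pairs examined. Srebf1 was below Srebf2 in all 10 libraries per kb of exon, with a ratio from 0.276 to 0.468 in R26-WT and from 0.316 to 0.522 in R26-TIR1(F74G). Insig1 and Insig2 stood near each other, with a ratio from 0.878 to 1.41 in R26-WT and from 0.791 to 1.31 in R26-TIR1(F74G), so neither was the higher in every library. Scd1, the desaturase known from liver and fat, was nearly absent, with 7.17, 15.7, 6.51 and 4.23 normalized counts in R26-WT and from 6.95 to 15.6, with a median of 9.97, in R26-TIR1(F74G), and the level of Scd2 per kb was from 215 to 455 times that of Scd1 in R26-WT and from 167 to 415 times in R26-TIR1(F74G). Fads2, the delta-6 desaturase, had 0 raw counts in all 4 R26-WT libraries, 6, 1 and 5 in R26-TIR1(F74G) replicates 7, 8 and 9, and 0 in the other 3, which is too few to compare. Both genes had a mean count under 10 and were not tested.

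Further genes around the pathway were taken as 6 lists of 56 genes, chosen by function and with earlier results of these data known. Of the 52 tested, 0 were called by DESeq2 and 0 by edgeR, and 0 had an unadjusted p under 0.05 with either, against 1.74% of all genes called by DESeq2 and 0.373% by edgeR, and 6.86% and 6.21% at that unadjusted p. The median log2 fold change was -0.0065, with 26 genes above 0 and 26 below. The 9 isoprenoid branch genes, which use farnesyl pyrophosphate for prenylation, dolichol and ubiquinone, had a median of -0.06, and the smallest p-values belonged to Pdss2 (-0.16, SE 0.13) and Coq2 (-0.13, SE 0.12). The 5 SREBP processing genes were all above 0, with a median of 0.09, led by the site-2 protease Mbtps2 (0.30, SE 0.20) and the SCAP cofactor Spring1 (0.18, SE 0.13). For the 11 tested genes of sterol uptake, storage and LXR the median was 0.0054, and the lipoprotein receptor Scarb1 had the smallest p of the 52 genes (log2 fold change 0.17, SE 0.10, adjusted p 0.947 with DESeq2), followed in its list by Stard3 (-0.10, SE 0.09). In acetyl-CoA and NADPH supply (7 tested genes, median -0.04) the first were Pgd (0.11, SE 0.10) and the citrate carrier Slc25a1 (-0.16, SE 0.16). In fatty acid elongation and activation (12 tested genes, median 0.02) they were Hacd2 (-0.23, SE 0.18) and Tecr (-0.19, SE 0.18), and in fatty acid oxidation (8 genes, median -0.03) Hadhb (0.16, SE 0.10) and Acadl (-0.15, SE 0.14). Among the 20 proliferation genes of the same libraries the log2 fold changes ran from -0.14 for Pcna, which was not called, to 1.85 for Bub1, and those of the 17 called genes began at 0.62 for Tyms. That list too was chosen with earlier results known, so it is not an independent contrast.

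**Figure D4:**
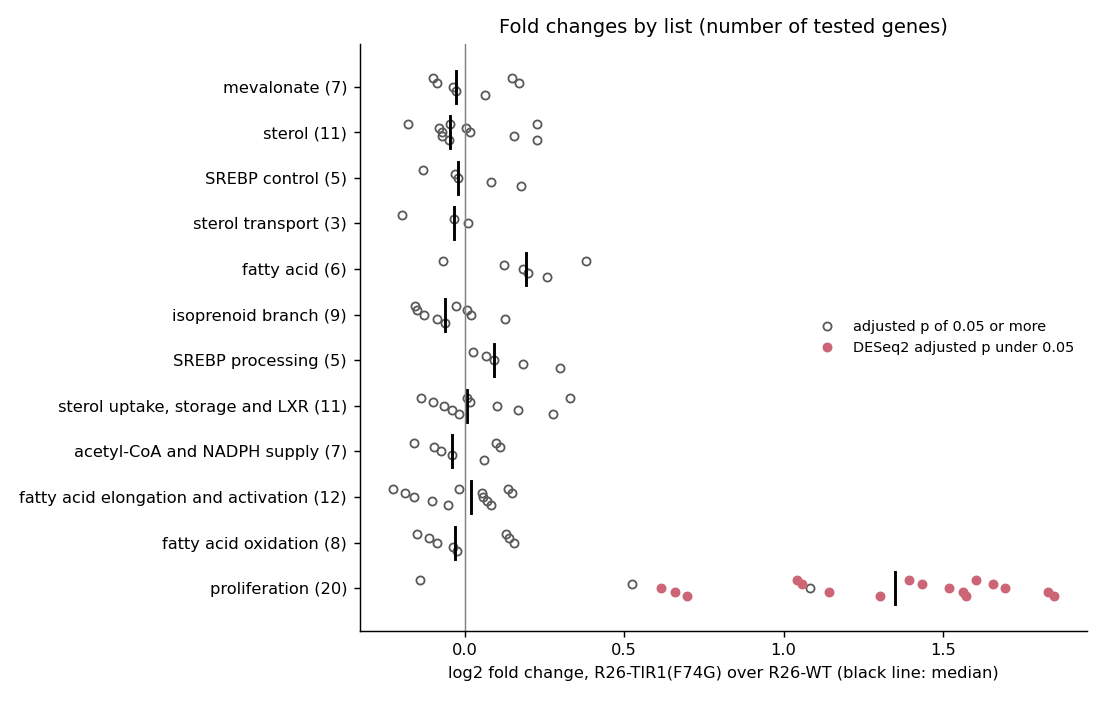
log2 fold changes of R26-TIR1(F74G) over R26-WT for each tested gene of the 5 groups of lipid genes, the 6 related lists and the proliferation list, with a black line at each median and filled dots for DESeq2 adjusted p under 0.05. All lipid and related genes are open circles around 0, while 17 of the 20 proliferation genes are filled, with a median of 1.35. All lists were chosen with earlier results of these data known.

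Libraries of 1 genotype differed widely from each other in several of these genes. The range over all 10 libraries, both genotypes together, exceeded 2-fold for 9 of the 32 tested genes. It was up to 5.22-fold for Fasn, 3.84-fold for Scd2, 2.94-fold for Acly and 2.88-fold for Abca1. The median range of the 32 genes was 1.66-fold, below the 1.90-fold over the 16179 tested genes with no count of 0. Averaged over the 6 tested fatty acid genes, the log2 deviation from each gene's mean over the 10 libraries was 0.17, 0.33, -0.47 and -0.42 in R26-WT replicates 1 to 4, and it ranged from -0.46 in replicate 9 to 0.70 in replicate 7 of R26-TIR1(F74G). This average did not describe each of the 6 genes. Elovl6 had 657 normalized counts in replicate 7 and 802 in replicate 9, the opposite order to Fasn, Acly and Scd2, and Acaca ranged from 180 to 196 in R26-WT, while in R26-TIR1(F74G) it was highest in replicate 7 (291) and lowest in replicate 9 (128). The libraries also differed in how counts depended on exon length. Log2 counts changed per doubling of exon length by 0.05, 0.11, -0.14 and -0.11 in R26-WT replicates 1 to 4, and by -0.09 in replicate 9 and 0.17 in replicate 7 of R26-TIR1(F74G). When each library's trends on length and GC content were removed, the average for the fatty acid genes was 0.42 in replicate 7, -0.29 in replicate 9, and -0.26 and -0.25 in R26-WT replicates 3 and 4, so it became smaller and kept its sign in each of these libraries.

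In normalized counts, 1 library of each genotype was the lowest of its group for most of the genes. R26-WT replicate 3 was the lowest of 4 for 17 of the 32 tested genes (53.1%, against 30.7% of all tested genes). With length and GC trends removed it was the lowest for 11 of 32 (against 27.5%), no longer most of them. R26-WT replicate 2 was then also the lowest for 11 of 32 (against 34.8%). R26-TIR1(F74G) replicate 9 was the lowest of the 6 libraries for 10 of the 18 mevalonate and sterol genes, for 4 of 5 SREBP control genes, for 4 of 6 fatty acid genes, for 0 of 3 transport genes and for 18 of all 32 tested genes (56.2%, against 26% of all tested genes), and it was the highest for 0 of 32. Replicate 7 was the lowest of the 6 for 7 of the 18 mevalonate and sterol genes. Replicate 8 was the highest of the 6 for 10 of the 32 tested genes (31.2%, against 12.0% of all tested genes) and the lowest for 0. With length and GC trends removed, replicate 9 was the lowest for 18 of 32 (against 21.9% of all tested genes) and the highest for 1, and replicate 8 was the highest for 9 of 32 (against 13.2%). Sqle had 1681 normalized counts in replicate 9 and 3159 in replicate 8, Hmgcs1 1546 and 2646, Cyp51 2718 and 4049, Lss 477 and 1178, and Insig1 1372 and 2193. The order was the opposite in Ebp, with 4042 in replicate 9 and 2878 in replicate 8, and in Acat2 (2310 and 2105). It was also the opposite in Elovl6 (802 and 715), Abcg1 (3156 and 2977) and Insig2 (1949 and 1885.5). These libraries carried the same labels, so the difference between them is not one of genotype, and their choice was made after the values were seen. Replicate 8 also had the lowest total, 24158699 counts, and the part of depth in this order was not tested.

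**Figure D5:**
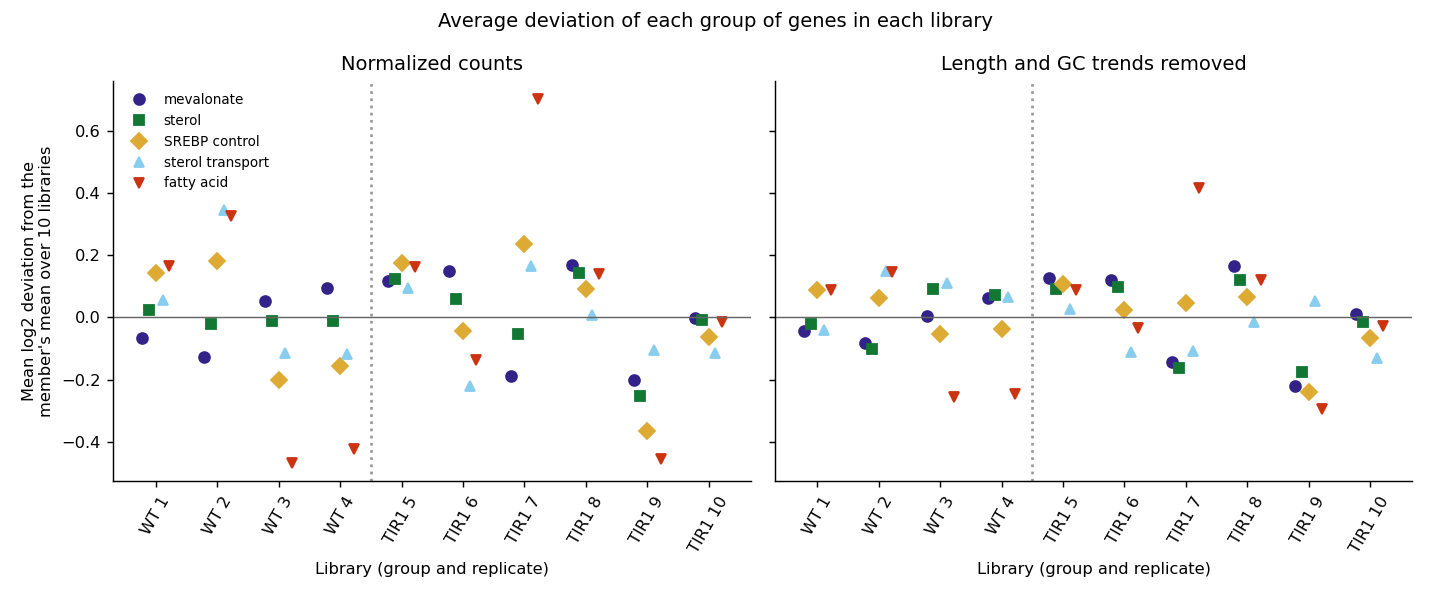
Mean log2 deviation of each group of genes from the gene's mean over 10 libraries, by library (4 R26-WT, 6 R26-TIR1(F74G)), for normalized counts (left) and with each library's length and GC trends removed (right). The means of the fatty acid genes range from -0.47 to 0.70 on the left and from -0.29 to 0.42 on the right, and mevalonate, sterol and SREBP control genes are below 0 in R26-TIR1(F74G) replicate 9 in both panels. Mevalonate and sterol genes are also below 0 in replicate 7 in both panels.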

How the data were processed

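Treg libraries were grouped by the genotype in the labels (4 R26-WT, 6 R26-TIR1(F74G)), and no library was left out. Members and gene lists were chosen with earlier results of these data known. The authors deposited raw counts of read pairs per gene name, without normalization. Per the file headers, they were made with featureCounts 2.1.1 on GENCODE M30 (GRCm39), with primary alignments, both mates on 1 chromosome, mapping quality 30 or more and no strand option. The labels name Bowtie2 and the methods STAR as aligner. The methods give cDNA amplification from low-input RNA for bulk RNA-seq of adult female mice, without naming these libraries. Where cDNA is amplified without molecular identifiers, counting error is a lower limit.

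DESeq2 1.42.0 (R 4.3.3, genotype as the only term, two-sided Wald test, mean count of at least 10, Benjamini-Hochberg adjusted p under 0.05) was fitted over 16363 genes. DESeq2 was the main test because the study's methods name it. edgeR 4.0.16, limma voom 3.58.1, sva 3.50.0 and changes of filter, scaling and samples were alternatives. The tests were first run on simulated data. Genes with full values were, per group of genes, the 2 with the smallest DESeq2 p and the highest level per kb, besides Srebf1, Srebf2, Insig1, Scap, Hmgcs1, Sqle, Fasn, Scd1 and Scd2. Levels per kb were divided by the summed exon length. Within groups, counts of library pairs differed by a chi-square of 10.3 to 246 per degree of freedom (21 pairs). This exceeds counting error but does not tell preparations of 1 animal from separate animals.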

Additional observations from a re-analysis of the deposited data

Results flagged for a closer look

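The Fasn value of R26-TIR1(F74G) replicate 7 was 6894 normalized counts, while the other 5 libraries of that group had from 1460 to 2649. The gap to the next library was 0.781 of the range of the group, above Dixon's 95% critical value for 6 samples, and it was 0.786 with length and GC trends removed. Of the 64 groups examined in this way (32 genes in 2 genotypes) only this 1 stood out, where chance gives about 3.2. Over all tested genes, replicate 7 was the lowest of the 6 libraries for 31.1% and the highest for 30.4%.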

How the results depend on the processing

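No paired analysis was possible because R26-WT holds replicates 1 to 4 and R26-TIR1(F74G) replicates 5 to 10. No member or related gene was called in either direction under the 9 alternatives of test, scaling, filter and covariate or in the 10 fits without 1 library. Calls over all genes moved more: 229 higher and 55 lower genes became 54 and 7 with edgeR, 69 and 11 with limma voom, and 468 and 275 with 1 surrogate variable, while 90 were lower with the length trend removed and 88 with the length and GC trends removed. Leaving out 1 library gave from 26 (without R26-WT replicate 3) to 88 (without R26-WT replicate 2) lower genes. Why these counts moved was not tested beyond the alternatives themselves. The difference in total counts lay from -12922847 to -7608327 when 1 library was left out, with an exact permutation p from 0.0317 to 0.131, and it passed the threshold without R26-WT replicate 2 or R26-TIR1(F74G) replicates 7 or 10 alone.

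Some fold changes of members changed sign, and none of them was called. With the length trend removed, the log2 fold change was 0.021 for Pmvk, 0.033 for Mvd, -0.026 for Cyp51, -0.032 for Dhcr7 and -0.025 for Stard4. With the length and GC trends removed (an alternative chosen after seeing the data), the log2 fold change was 0.018 for Pmvk, 0.012 for Mvd, -0.013 for Cyp51, -0.035 for Dhcr7 and -0.013 for Stard4. With 1 surrogate variable, the log2 fold change was 0.031 for Pmvk, 0.033 for Mvd, -0.031 for Cyp51, 0.038 for Nsdhl, 0.011 for Ebp, -0.037 for Dhcr7, 0.016 for Insig2, -0.061 for Srebf1 and -0.0074 for Stard4. With limma voom, the log2 fold change was 0.0021 for Idi1, 0.022 for Sqle, 0.034 for Insig1 and 0.079 for Abca1. With edgeR, the log2 fold change was -0.0021 for Cyp51. With TMM size factors, the log2 fold change was -0.0022 for Cyp51. When 1 library was left out, the sign also changed for 16 genes, whose log2 fold changes ranged from -0.027 to 0.20 for Hmgcs1, from -0.24 to 0.026 for Mvk, from -0.11 to 0.039 for Pmvk, from -0.10 to 0.074 for Mvd, from -0.15 to 0.038 for Sqle, from -0.067 to 0.073 for Cyp51, from -0.20 to 0.092 for Nsdhl, from -0.16 to 0.0066 for Ebp, from -0.040 to 0.071 for Dhcr7, from -0.092 to 0.078 for Insig1, from -0.073 to 0.013 for Insig2, from -0.043 to 0.24 for Srebf1, from -0.076 to 0.076 for Stard4, from -0.24 to 0.30 for Abca1, from -0.0048 to 0.23 for Acaca and from -0.11 to 0.74 for Fasn. The other 16 tested genes kept their sign, with the widest ranges from 0.0068 to 0.51 for Scd2, from 0.015 to 0.49 for Acly, from 0.025 to 0.42 for Scap, from 0.14 to 0.36 for Lss, from 0.077 to 0.29 for Fdps, from 0.14 to 0.34 for Hsd17b7 and from 0.10 to 0.28 for Fads1. The cause of these changes was not tested.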
